A study of Mus musculus with 2 samples.

Results

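The barcodes described here were chondrocytes of the fracture callus with little or no Col10a1, the collagen gene that marks chondrocytes entering hypertrophy. They were chosen by their own counts in each library separately, from barcodes with at least 200 genes and at most 20% mitochondrial UMIs (UMI, unique molecular identifier, 1 count per captured RNA molecule). Per 10000 UMIs of a barcode, a member had at least 100 of Col2a1, at least 10 of Acan, fewer than 10 of Col10a1, fewer than 50 of the myeloid genes S100a8, S100a9, C1qa, C1qb and C1qc together, and fewer than 20 of the acute-phase genes Saa3, Hp, Lcn2 and Chil1 together. It also had at least 5000 UMIs in all and fewer than 10 UMIs of Mki67, Top2a, Birc5, Ube2c, Cdk1 and Cenpf together. In library MGJ, 1475 of 14295 barcodes met the rule, and in library MGJ2, 48 of 8009 did, which makes 1523 of 22304. Of the barcodes that passed the filters on genes and mitochondrial UMIs, members made up 11.0% in library MGJ (exact 95% interval 10.4 to 11.5%) and 0.615% in library MGJ2 (0.454 to 0.814%). Because these counts chose the members, their levels of the chosen genes are a description, and no test was made.

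Both libraries were scRNA-seq of callus, the tissue that bridges a broken bone, taken from wild-type mice that all had a femoral fracture and no other treatment. Calluses were taken at 10 dpf (n = 5 mice) and 20 dpf (n = 5 mice; dpf, days post-fracture), and the labels give neither library a day. The barcodes do not tell mice apart, so each library stands for 1 sample, values are set side by side, and no comparison of days was made. Levels below are summed UMIs of a gene over all UMIs of a class, in counts per 1000000 UMIs (CPM), and every interval is an exact 95% interval that covers counting error only.

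Members had a median of 20918 UMIs and 3694 genes in MGJ and of 30746 UMIs and 4806.5 genes in MGJ2. They were set beside other barcodes of the same library. Col10a1-mid chondrocytes (328 and 17 barcodes in MGJ and MGJ2) met the Col2a1, Acan and other limits but held 10 to under 100 of Col10a1 per 10000 UMIs, and Col10a1-high chondrocytes (435 and 38) held at least 100. Other barcodes (4506 and 3857) had at least 5000 UMIs and missed the Col2a1 or Acan minimum. Neutrophils (629 and 715 of these, with at least 200 of S100a8 plus S100a9 per 10000 UMIs) gave a background level for cartilage genes, which such a cell should lack. Whether a level in this class came from free RNA, from barcodes with 2 cells or from the neutrophils themselves was not tested. There were 19 barcodes with the same sequence in both libraries, of which 2 were members in MGJ and 0 in MGJ2.

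In endochondral healing, callus cells become chondrocytes that lay down cartilage and later enlarge, switch on Col10a1 and give way to bone. Chondrocytes that have not begun this step are kept apart from it by a signalling loop in which prehypertrophic cells release Indian hedgehog (Ihh), and parathyroid hormone-related protein (Pthlh) acts through its receptor (Pth1r) to delay hypertrophy. Sox9 with Sox5 and Sox6 drives the genes of the cartilage matrix, while Runx2, Mef2c and Foxa factors act in hypertrophy.

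The stretch before the start of a gene is where such factors meet the basal machinery, and 4 of these are printed because the genes mark the members or define their limit. Of the 5 markers, Ucma and Cnmd had 1 entry each and Epyc had 2 in the RefSeq promoter table (GRCm38.p6), and Col10a1 had 1 too. For Epyc the entry at the lower coordinates is printed. The 250 bases before the start are given 5′ to 3′ on the strand of the gene, with matches on either strand to ACAANG (the core bound by SOX factors), ACCNCA (that of RUNX factors) and TATAAA in capitals. These lie at chr2:4975872-4976121 (plus strand) for Ucma, chr10:97643818-97644067 (plus strand) for Epyc, chr14:79662184-79662433 (minus strand) for Cnmd and chr10:34389731-34389980 (plus strand) for Col10a1.
Ucma: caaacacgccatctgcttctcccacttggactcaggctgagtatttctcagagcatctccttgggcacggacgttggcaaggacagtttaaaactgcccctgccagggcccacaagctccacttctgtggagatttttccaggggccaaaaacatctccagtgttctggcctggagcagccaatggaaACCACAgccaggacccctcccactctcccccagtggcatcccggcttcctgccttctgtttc
Epyc: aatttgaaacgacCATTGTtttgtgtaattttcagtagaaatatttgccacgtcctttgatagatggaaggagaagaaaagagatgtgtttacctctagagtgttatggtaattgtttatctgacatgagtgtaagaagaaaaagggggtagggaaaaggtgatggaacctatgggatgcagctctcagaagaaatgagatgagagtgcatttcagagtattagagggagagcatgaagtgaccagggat
Cnmd: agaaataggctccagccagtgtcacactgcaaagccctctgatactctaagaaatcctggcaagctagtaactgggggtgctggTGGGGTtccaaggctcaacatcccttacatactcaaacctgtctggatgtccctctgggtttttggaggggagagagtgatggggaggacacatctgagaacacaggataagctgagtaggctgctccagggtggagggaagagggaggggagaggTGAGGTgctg
Col10a1: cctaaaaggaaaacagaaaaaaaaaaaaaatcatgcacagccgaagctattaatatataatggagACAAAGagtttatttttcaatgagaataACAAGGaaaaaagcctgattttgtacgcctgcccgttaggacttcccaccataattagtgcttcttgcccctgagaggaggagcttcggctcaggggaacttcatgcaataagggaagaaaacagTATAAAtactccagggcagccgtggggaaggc
Ucma held 1 ACCNCA match and Cnmd held 2, the printed Epyc stretch held 1 ACAANG match, and Col10a1 held 2 ACAANG matches and 1 TATAAA. The other Epyc entry, at chr10:97646853-97647102 (plus strand), held 3 ACAANG matches. Over the 27025 promoters of the table, 36.6% held ACAANG, 39.9% held ACCNCA and 13% held TATAAA in the same 250 bases, so such matches are common. A match is only a match of letters.

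The label of immature chondrocytes came with 5 markers that were chosen with earlier results of these data known. Their levels therefore describe the members and do not test the label. Col2a1, the main fibrillar collagen of cartilage (chromosome 15, 97975602 to 98004695, minus strand, GRCm38), was one of the genes of the rule and stood at 55596 CPM (interval 55513 to 55678) in the members of MGJ and 58458 CPM (interval 58064 to 58854) in those of MGJ2. Ucma (chromosome 2, 4976122 to 4985748, plus strand) encodes a Gla-rich protein of the upper growth plate and was not used by the rule. Its level was 2179 CPM in MGJ, against 959.9 in Col10a1-mid, 344 in Col10a1-high chondrocytes and 23.4 in neutrophils. Library MGJ2 gave 641, 246, 128 and 0.101 CPM in the same classes. The ratio of members to Col10a1-high chondrocytes was 6.33 (interval 6.12 to 6.55) in MGJ and 5.00 (interval 4.24 to 5.92) in MGJ2.

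Cnmd, the anti-angiogenic membrane protein chondromodulin (chromosome 14, 79637690 to 79662170, minus strand), had 2595 and 2766 CPM in members of MGJ and MGJ2, against 1179 and 517 in Col10a1-high chondrocytes, ratios of 2.20 and 5.35. Epyc, a small leucine-rich proteoglycan (chromosome 10, 97644068 to 97682454, plus strand), had 405 and 248 CPM against 137 and 9.05, ratios of 2.96 (interval 2.80 to 3.14) and 27.4 (interval 15.5 to 53.6). Penk, which encodes the enkephalin precursor (chromosome 4, 4133531 to 4138819, minus strand), was the lowest of the markers at 166 and 109.6 CPM. The ratio to Col10a1-high chondrocytes was 7.08 (interval 6.22 to 8.10) in MGJ. In MGJ2 the Col10a1-high chondrocytes held 1 Penk UMI, and the ratio was 145 (interval 25.7 to 5776). The 4 markers that the rule did not use were above the neutrophil level in both libraries, while the level of Col2a1 was set by the rule. This describes the members as a class. In MGJ2, 16 members with Ibsp, described below, held 93.98 CPM of Ucma, less than the Col10a1-high chondrocytes, and 1 Penk UMI.

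Single members differed widely in these genes. Over members of MGJ, Ucma ran from 0 through a median of 16.4 to 104 UMIs per 10000, and Cnmd from 0 through 26.3 to 101. Epyc had a median of 1.88 and a highest value of 30.2, and Penk a median of 0 and a highest value of 73.6. Members and Col10a1-high chondrocytes overlapped in all of them, since barcodes without a UMI occurred in both classes for the 4 markers outside the rule. After each barcode was thinned to 5000 UMIs, at least 1 Ucma UMI was seen in 86.3% (interval 84.4 to 88.0%) of members, 40.9% of Col10a1-high chondrocytes and 5.41% of neutrophils in MGJ, and in 52.1% (interval 37.2 to 66.7%), 15.8% and 0.140% in MGJ2. Penk was seen in 27.0% (interval 24.7 to 29.3%) of members in MGJ and 16.7% (interval 7.48 to 30.2%) in MGJ2, against 2.07% and 0.839% of neutrophils, so most members showed no Penk UMI at this depth. Without thinning, the shares of members with a UMI were 93.3% and 75% for Ucma and 41.6% and 27.1% for Penk.

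**Figure D1:**
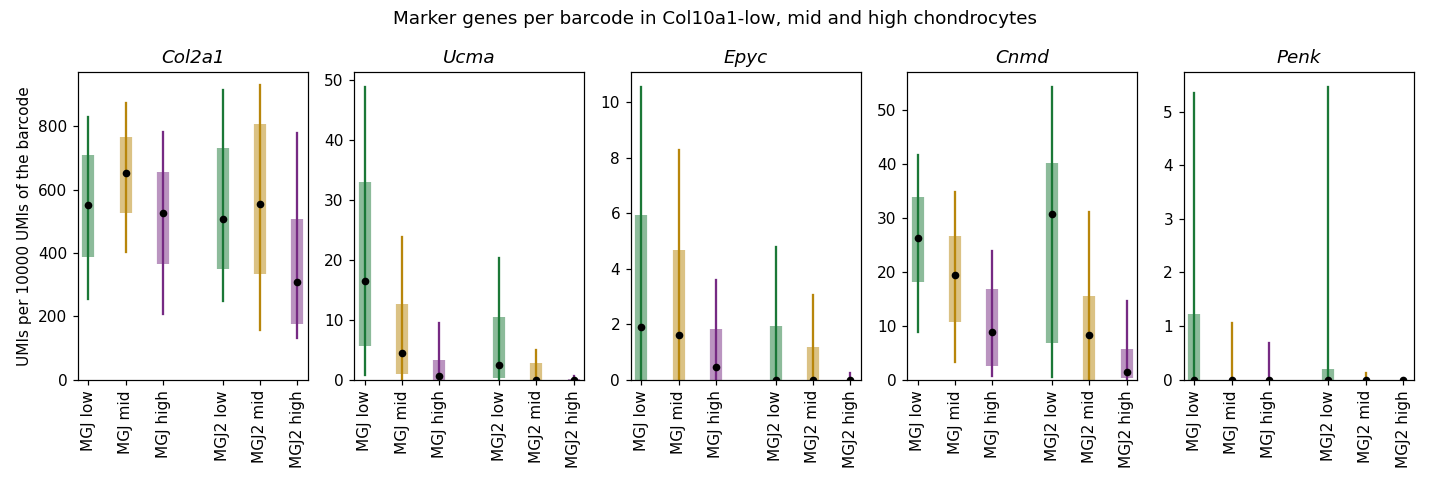
UMIs of each marker per 10000 UMIs of the barcode (vertical axes) in Col10a1-low members, Col10a1-mid and Col10a1-high chondrocytes of MGJ and MGJ2. Points are medians over barcodes, thick bars the 25th to 75th and thin bars the 10th to 90th percentiles; in MGJ the median of Ucma was 16.4 in members, 4.48 in Col10a1-mid and 0.589 in Col10a1-high chondrocytes, while the medians of Col2a1 lay between 526 and 651.

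Col10a1 itself was at 152 CPM in the members of MGJ, below the 266 CPM of neutrophils of the same library, and at 231 against 38.0 CPM in MGJ2. After thinning, 42.4% of members and 33.2% of neutrophils of MGJ (median depths of 20918 and 8109 UMIs before thinning) held a Col10a1 UMI, and 39.6% and 12.3% did in MGJ2 (30746 and 9687 UMIs). Members were capped in Col10a1 and neutrophils were not, so these values are given side by side only. Markers of blood, endothelial and osteoclast lineages were sparse in members, and those of osteoblasts were not. The rule capped S100a8, S100a9, C1qa, C1qb and C1qc in members and Col10a1-high chondrocytes but not in other barcodes. Low sums of neutrophil and macrophage genes in members thus follow in part from the rule. The 8 neutrophil genes listed summed to 337 CPM in members and 364 in Col10a1-high chondrocytes against 29224 in other barcodes of MGJ, and to 253, 275 and 57107 CPM in MGJ2. The 8 macrophage and monocyte genes summed to 245 and 188 CPM in members of MGJ and MGJ2, and C1qa, C1qc and Mrc1 were at 0 in MGJ2. The 5 endothelial genes summed to 12.3 and 18.0 CPM, the 7 lymphoid genes to 5.04 and 9.71 CPM and the 5 osteoclast genes to 121 and 77.0 CPM, the last mostly Ctsk. The 6 osteoblast genes, which include Col1a1 and Ibsp, summed to 15183 CPM in members and 15468 in other barcodes of MGJ and to 30537 and 1477 CPM in MGJ2. The 5 erythroid genes summed to 92.4 CPM in MGJ, where 1 member reached 1420 per 10000 UMIs, and were all at 0 in MGJ2. At least 10 per 10000 UMIs of the macrophage, erythroid and endothelial genes together were held by 49 members of MGJ (3.32%) and 2 of MGJ2 (4.17%).

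Other barcodes of the callus had missed the Col2a1 or Acan minimum, so levels of cartilage genes differed from them by the way the classes were formed. Of 13935 genes with at least 50 UMIs in both classes together in MGJ, 1517 (10.9%) were at least 2-fold higher in members, and in MGJ2, 2436 of 12574 (19.4%) were. Levels at least 2-fold lower were found for 4043 genes (29%) and 4358 genes (34.7%). By a rule that asked for the same direction in both libraries, the genes with the largest ratios in MGJ were Epyc, Ucma, Il17b, Krt16, Matn1, Ppp1r1b, Matn3, Crispld1, Ncmap, Scrg1, Col2a1, Hapln1, Col9a1, Meltf and Mlph, of 758 genes that met it. Ratios of these 15 ran from 33.3 for Mlph to 68.2 for Epyc in MGJ. Matn3, a linker protein that ties collagen to proteoglycan, had 3546 and 2644 CPM in members against 77.0 and 4.06 in other barcodes of MGJ and MGJ2. Scrg1, a small secreted protein of differentiating cartilage, had 699 and 548 against 16.6 and 3.54 CPM. The list also held genes better known from other tissues. Il17b, a cytokine of the interleukin 17 family, was at 69.5 and 42.3 CPM in members against 1.07 and 0.411. Krt16, a keratin of stressed epidermis, stood at 176 and 305 CPM against 3.20 and 2.33. Ppp1r1b, which encodes the phosphatase inhibitor DARPP-32 of striatal neurons, was at 31.1 and 68.7 CPM against 0.620 and 0.0648, the last resting on 3 UMIs. Other barcodes held 1371 CPM of Col2a1 in MGJ and 191 in MGJ2, so the same level in members gives a smaller ratio in MGJ.

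Against Col10a1-high chondrocytes of the same library, 1049 of 11754 genes (8.92%) were at least 2-fold higher in members of MGJ and 881 (7.5%) at least 2-fold lower. In MGJ2, 499 of 5333 genes (9.36%) were at least 2-fold higher and 314 (5.89%) at least 2-fold lower. Among the 5333 genes with enough UMIs in both libraries, 206 were past 2-fold higher in both, which is 72.3% of the 285 of MGJ and 41.3% of the 499 of MGJ2. For lower levels, 174 genes were shared, 52.9% of 329 and 55.4% of 314. Of the genes past 2-fold higher in MGJ, 2 were past 2-fold lower in MGJ2, and of those lower in MGJ, 1 was higher. Against the nearer Col10a1-mid chondrocytes, fewer genes passed 2-fold, with 496 of 11569 (4.29%) higher and 329 (2.84%) lower in MGJ and 195 of 4342 (4.49%) higher and 106 (2.44%) lower in MGJ2. Against Col10a1-high chondrocytes, the median ratio over all genes was 1.04 in MGJ and 1.05 in MGJ2.

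The genes with the largest ratios above 2, among 203 that met the rule in both libraries, were Fam13c, Adam19, Mest, Itgbl1, C1qtnf3, Penk, Lurap1l, Cthrc1, Ucma and Dclk1. C1qtnf3, a secreted protein of the C1q and TNF family made by proliferating chondrocytes, was the most abundant, at 3049.6 CPM in members and 423 in Col10a1-high chondrocytes of MGJ (ratio 7.21) and at 749.9 and 39.2 in MGJ2 (ratio 19.1). Mest, an imprinted gene of growing mesoderm, had 427 and 52.9 CPM in MGJ and 246 and 47.5 in MGJ2. Cthrc1, a secreted collagen triple helix repeat protein, had 238 and 37.3 CPM in MGJ and 187 and 54.3 in MGJ2. Adam19 and Dclk1, a membrane metalloprotease and a microtubule-associated kinase, were at 36.1 and 79.9 CPM in members of MGJ, with ratios of 8.12 and 5.99. The genes with the smallest ratios, among 173, were Col10a1, Krtap17-1, Pank1, Wnk4, Cds1, Aldh1a3, Ffar4, Fam43a, Rasd1 and Gmpr. Aldh1a3, an enzyme of retinoic acid synthesis, had 18.1 CPM in members against 456 in Col10a1-high chondrocytes of MGJ and 32.6 against 315 in MGJ2. Pank1, an enzyme of coenzyme A synthesis, had 2.47 against 75.3 and 10.4 against 161 CPM. Wnk4, a kinase that regulates ion transporters, had 2.92 against 80.2 and 11.8 against 150.1 CPM, and Cds1, an enzyme of phospholipid synthesis, 4.599 against 118 and 3.47 against 96.5.

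Cartilage matrix genes were high in members without being particular to them. Of the 10 cartilage collagens, 0 were at least 2-fold higher than in Col10a1-high chondrocytes in MGJ (8.92% of all genes). In MGJ2, 2 were higher, Col9a1 and Col11a2 (9.36% of all genes). None was 2-fold lower in either (7.5% and 5.89% of all genes), and the median ratios were 1.23 and 1.87. The list includes Col2a1, a gene of the rule. Col9a1, a collagen on the surface of cartilage fibrils, had 4426 and 4861 CPM in members and 2940.1 and 1691 in Col10a1-high chondrocytes. Of the proteoglycans and linkers, 7 of 18 were past 2-fold higher (8.92% of all genes) and 1 lower (7.5%) in MGJ. In MGJ2, 8 of 16 were higher (9.36% of all genes) and 0 lower (5.89%). Those past 2-fold higher in both were Matn2, Matn4, Cilp, Cilp2, Fmod, Prelp and Epyc, with 0 UMIs of Cilp and 2 of Cilp2 in the Col10a1-high chondrocytes of MGJ2. Fmod, a small proteoglycan that binds collagen fibrils, had 1407 against 560.0 CPM in MGJ and 1711 against 452 in MGJ2. Prelp, of the same family, had 455 against 196 and 646 against 88.2 CPM. Acan, the large proteoglycan of cartilage and a gene of the rule, had 5035 against 6408 and 4886 against 5051 CPM. Hapln1, the link protein that joins aggrecan to hyaluronan, went opposite ways, with 3632 against 7386 CPM in MGJ and 4388 against 2619 in MGJ2. Of the small secreted and membrane proteins of cartilage, Ucma, Cnmd, Scrg1 and Penk were past 2-fold higher in both libraries. Snorc, a chondrocyte transmembrane proteoglycan, was abundant at 5524 and 7172 CPM and lower than in Col10a1-high chondrocytes (9839 and 8907).

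Matrix supply was followed in the making of glycosaminoglycans and the folding of collagen. Among genes of sulphate supply and glycosaminoglycan synthesis, 5 of 24 were at least 2-fold higher than in Col10a1-high chondrocytes in MGJ (8.92% of all genes) and 11 of 21 in MGJ2 (9.36%). None was 2-fold lower in either (7.5% and 5.89% of all genes), and the median ratios were 1.46 and 2.07. Slc26a2, the sulphate transporter that chondrocytes need to sulphate their proteoglycans, had 219 CPM in members against 83.7 in MGJ and 298 against 82.96 in MGJ2. Papss2, which makes the activated sulphate donor, had 489.5 against 275 and 563 against 232 CPM. Ugdh, which makes the UDP-glucuronate used for glycosaminoglycan chains, had 425 against 182 and 436 against 210.4 CPM. Csgalnact1, which starts chondroitin sulphate chains, had 77.9 against 31.6 and 108 against 22.6 CPM. Has2, the hyaluronan synthase, showed ratios of 2.51 (interval 2.27 to 2.77) and 8.94 (interval 5.49 to 15.4) in MGJ and MGJ2. Of the genes of collagen folding and secretion, 3 of 26 were past 2-fold higher (8.92% of all genes) and 3 lower (7.5%) in MGJ. As many thus passed each way there. In MGJ2, 12 of 26 were higher (9.36% of all genes) and 2 lower (5.89%). Serpinh1, the collagen chaperone, had 2389.5 against 1268 CPM in MGJ and 2496 against 923 in MGJ2. Creb3l2, a transcription factor of the secretory pathway in chondrocytes, had ratios of 3.06 and 3.09. The crosslinking enzymes split, since Loxl3 had ratios of 2.57 and 2.66 while Lox had 0.267 and 0.492 and Loxl4 0.117 and 0.126.

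**Figure D2:**
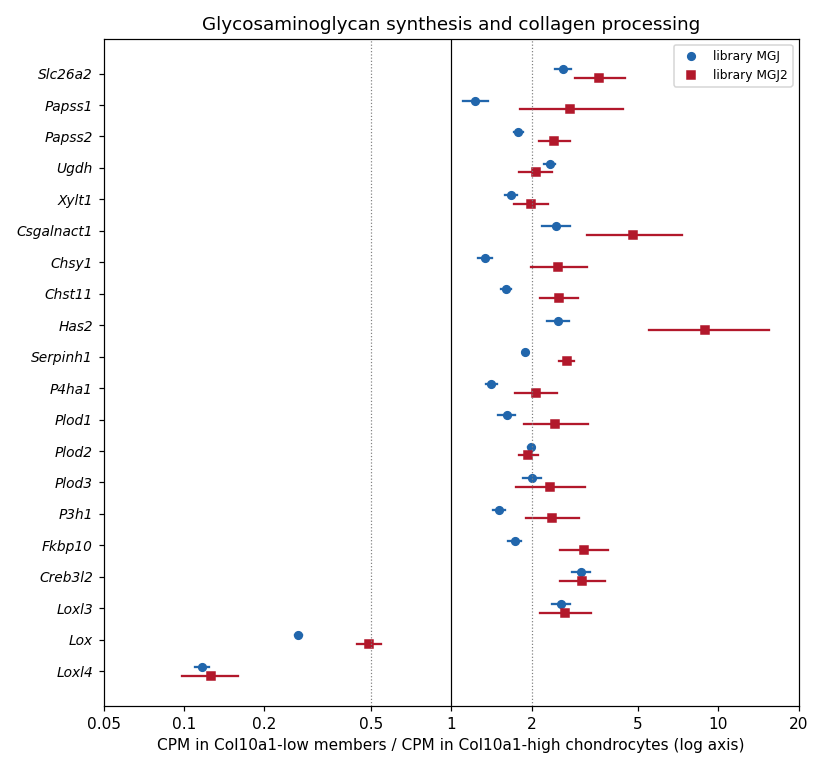
Ratio of CPM in members to CPM in Col10a1-high chondrocytes (log axis) for genes of glycosaminoglycan synthesis and of collagen processing, with exact 95% counting intervals as bars; circles are MGJ, squares MGJ2 and dotted lines 2-fold. From Slc26a2 to Loxl3 every point plotted lies above 1, and Lox and Loxl4 lie below 0.5 in both libraries.

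Among transcription factors of chondrocytes, Sox9 stood at 868 CPM in members and 744 in Col10a1-high chondrocytes of MGJ and at 1949 and 1456 in MGJ2. Its partners Sox5 and Sox6 had ratios of 2.82 and 1.38 in MGJ and 2.86 and 1.94 in MGJ2, and Sox5 was the only listed factor past 2-fold higher in either. Mef2c, which acts in hypertrophy, had 82.1 against 371 CPM and 184 against 410.3 CPM in MGJ and MGJ2. Foxa2 and Foxa3 had ratios of 0.262 and 0.495 in MGJ and 0.766 and 0.543 in MGJ2, where the interval of Foxa2 included 1. Runx2 had 0.705 and 0.612. In all, 1 of 18 factors were past 2-fold higher (8.92% of all genes) and 3 lower (7.5%) in MGJ. In MGJ2, 1 of 17 were higher (9.36% of all genes) and 1 lower (5.89%).

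In the hedgehog and PTHrP loop, the ligand gene Ihh and the hedgehog targets went opposite ways. The ligand Ihh was at 26.2 CPM in members against 229 in Col10a1-high chondrocytes of MGJ (ratio 0.114, interval 0.106 to 0.124) and 40.2 against 596 in MGJ2 (ratio 0.0675, interval 0.0508 to 0.0882). Ptch1, the hedgehog receptor that is itself a target of the pathway, went the other way, with 119 against 33.8 CPM and 188 against 71.7 CPM, ratios of 3.52 (interval 3.15 to 3.94) and 2.62 (interval 2.07 to 3.35). Gli1, another target and effector, was sparse, at 4.92 CPM in members and 0.494 in Col10a1-high chondrocytes of MGJ (ratio 9.95, interval 4.17 to 31.1), and rested on 1 UMI in the Col10a1-high chondrocytes of MGJ2 (ratio 18.4, interval 2.94 to 762.4). Cdon, a co-receptor, had ratios of 2.43 and 2.52, and Smo, the signal transducer, 1.13 and 1.21 with intervals that included 1. Pthlh was near the limit of detection at 3.62 and 4.16 CPM in members of MGJ and MGJ2, against 3.25 and 0 in neutrophils. Its receptor gene Pth1r was lower than in Col10a1-high chondrocytes, at 540.0 against 1381 CPM in MGJ and 1113 against 1432 in MGJ2. Over the list, 6 of 13 genes were past 2-fold higher (8.92% of all genes) and 2 lower (7.5%) in MGJ. In MGJ2, 2 of 6 were higher (9.36% of all genes) and 1 lower (5.89%).

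Growth factor genes were split between both classes. Of the FGF, BMP, TGF-beta and Wnt components, 12 of 31 were past 2-fold higher (8.92% of all genes) and 8 lower (7.5%) in MGJ. In MGJ2, 10 of 26 were higher (9.36% of all genes) and 6 lower (5.89%). The ligands Bmp2 and Bmp6 were lower in members, Bmp2 at 172 against 1009 CPM and 135 against 634 CPM, and Bmp6 with ratios of 0.193 and 0.445. The BMP antagonist Nog was lower as well (0.117 and 0.399). Gdf10, a distant BMP relative, and Chrdl2, a chordin-like antagonist, were higher, with ratios of 3.34 and 4.43 in MGJ and 12.3 (interval 5.03 to 39.2) and 64.4 (interval 11.2 to 2579) in MGJ2, the last against 1 UMI. Of the secreted Wnt antagonists, Sfrp5 was higher in members (41.3 against 9.29 CPM and 82.6 against 15.1 CPM) and Frzb lower (229 against 623 and 389 against 902 CPM). FGF receptors differed among themselves. Fgfr1 was lower (0.255 and 0.289), Fgfr2 was higher (2.47 and 3.27), and Fgfr3, the receptor that restrains chondrocyte division, was at 1.11 in MGJ and 3.19 in MGJ2. Tgfbi, a secreted matrix protein induced by TGF-beta, had ratios of 3.45 and 6.72, with 294 CPM in members and 170.4 in neutrophils of MGJ.

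**Figure D3:**
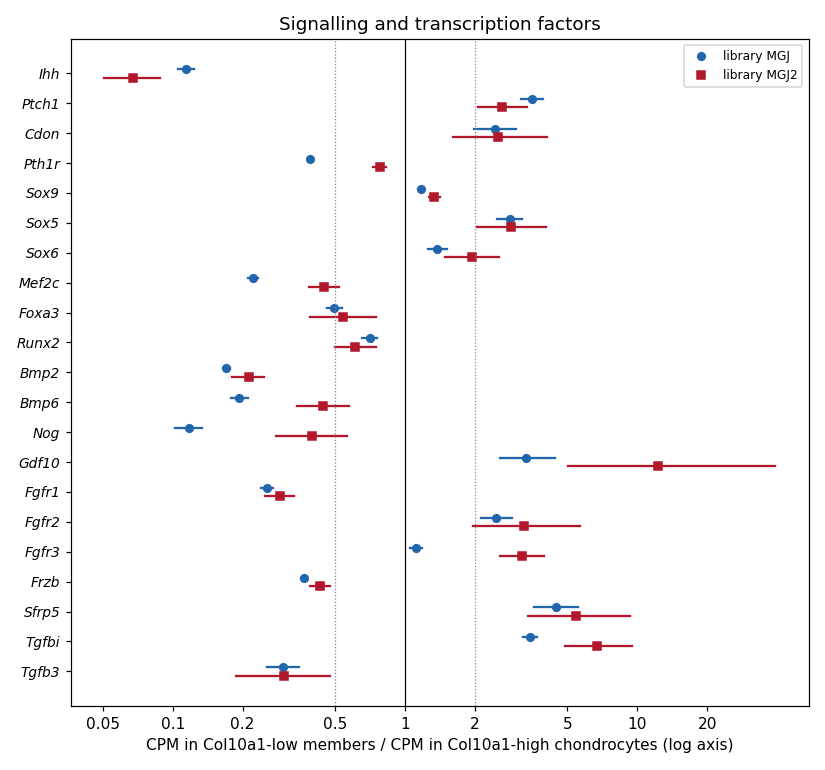
Ratio of CPM in members to CPM in Col10a1-high chondrocytes (log axis) for signalling genes and transcription factors, with exact 95% counting intervals as bars; circles are MGJ, squares MGJ2 and dotted lines 2-fold. Ihh lies at 0.114 and 0.0675 and Ptch1 at 3.52 and 2.62, on opposite sides of 1.

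Of the genes of hypertrophy and mineralization, 8 of 16 were past 2-fold lower in members (7.5% of all genes) and 2 higher (8.92%) in MGJ. In MGJ2, 5 of 15 were lower (5.89% of all genes) and 1 higher (9.36%). Both counts of lower genes include Col10a1, by which the classes were set, and 6 and 9 genes lay within 2-fold. Mmp13, the collagenase of terminal chondrocytes, was at 106 CPM in members of MGJ, below the 213 CPM of neutrophils, and at 104 against 1438 CPM in Col10a1-high chondrocytes of MGJ2. Spp1 (osteopontin) stood at 2904 CPM in members, 3895 in neutrophils and 12522 in Col10a1-high chondrocytes of MGJ. Ibsp, bone sialoprotein, had 1371 against 11466 CPM in MGJ and 5831 against 11267 in MGJ2. Alpl, the phosphatase that frees phosphate for mineral, had 392 against 1274 and 943 against 1235 CPM. The exceptions past 2-fold higher were Ank, which exports pyrophosphate, and Slc20a1, a phosphate importer, in MGJ (2.06 and 2.14, with 1.65 and 1.53 in MGJ2, the latter 0.848 with every barcode weighted equally), and Car12, a carbonic anhydrase, in MGJ2 (3.68, or 1.44 with a Col10a1 limit of 5, with 0.895 in MGJ).

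Of the perichondrial and fibroblast genes, 9 of 17 were past 2-fold higher in members than in Col10a1-high chondrocytes in MGJ (8.92% of all genes) and 10 of 13 in MGJ2 (9.36%). Lower were 0 and 0 (7.5% and 5.89% of all genes), and the median ratios were 2.23 and 2.67. Col1a1, the fibrillar collagen of bone and fibrous tissue, had 4945 CPM in members, 1897 in Col10a1-high chondrocytes and 1381 in neutrophils of MGJ, and 10676, 2164 and 137 in MGJ2. Its ratio to Col10a1-high chondrocytes in MGJ2 was 4.93 and became 1.31 in members with Ibsp under 10 per 10000 UMIs only. Prrx1, a factor of limb mesenchyme, had 103, 36.8 and 20.0 CPM in the same classes of MGJ and 89.5, 8.30 and 1.12 in MGJ2. For Postn and Aspn, matrix proteins of fibrous tissue, neutrophils of MGJ held 320.0 and 112 CPM against 557 and 139 in members. Thy1, Ly6a, Cd34 and Acta2, which mark fibroblasts, progenitors and smooth muscle, were at 2.76, 7.04, 3.46 and 20.9 CPM in members of MGJ, below the neutrophil level for each (12.5, 48.7, 10.8 and 57.9). Against other barcodes, 1 of 17 were past 2-fold higher (10.9% of all genes) and 9 lower (29%) in MGJ. In MGJ2, 12 were higher (19.4% of all genes) and 4 lower (34.7%).

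Against Col10a1-high chondrocytes, 8.92% of all genes were past 2-fold higher and 7.5% lower in MGJ, and 9.36% and 5.89% in MGJ2. These shares stand beside each list of this paragraph that is set against that class. Of the markers of resting zone and articular chondrocytes, 4 of 12 were past 2-fold higher and 1 lower (Foxa2) in MGJ, and 3 of 7 higher and 0 lower in MGJ2. Sfrp5, Ucma and Cilp were in both counts of higher genes, Cilp against 0 UMIs in MGJ2. Against other barcodes, 4 of 13 were higher (10.9% of all genes) and 7 lower (29%) in MGJ. In MGJ2, 8 of 9 were higher (19.4% of all genes) and 0 lower (34.7%). Prg4, the lubricin of articular surfaces, was sparse at 35.0 and 15.3 CPM, with a ratio of 0.813 in MGJ that became 3.30 with at most 10% mitochondrial UMIs, and Gdf5, the joint morphogen, was at 65.7 and 36.8 CPM with ratios of 0.557 and 0.567. Among matrix proteases and inhibitors, 4 of 13 were past 2-fold higher and 2 lower in MGJ and 3 of 9 higher and 0 lower in MGJ2. Mmp2, a gelatinase, had ratios of 3.13 and 5.08, and Timp3, a matrix-bound inhibitor, 0.241 and 0.658. Hypoxia and glycolysis genes were mostly within 2-fold, with 4 of 18 higher and 1 lower in MGJ and 2 of 14 higher and 0 lower in MGJ2; Eno1, enolase, was higher in both (2.06 and 2.42). Immediate-early and heat shock genes had 1 of 10 past 2-fold lower in MGJ and 3 of 8 in MGJ2, and none higher. Atf3, a stress-induced factor, was in both counts (0.357 and 0.287).

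Cycling barcodes had been left out by a count of 6 genes of mitosis and its approach. No such limit was set on other barcodes, so a lower level of S phase genes in members follows in part from the rule. Of these genes, 13 of 14 were past 2-fold lower than in other barcodes in MGJ (29% of all genes) and 14 of 14 in MGJ2 (34.7% of all genes). Against Col10a1-high chondrocytes, which met the same limit, 2 of 13 were higher (8.92% of all genes) and 1 lower (7.5%) in MGJ. In MGJ2, 0 of 3 were higher (9.36% of all genes) and 1 lower (5.89%). Pcna, the sliding clamp of DNA replication, stood at 45.7 and 40.5 CPM in members and Col10a1-high chondrocytes of MGJ. The 120 cycling chondrocytes with low Col10a1 in MGJ held 2387 CPM of Ucma, 2372 of Cnmd and 422 of Epyc, and the 108 with acute-phase genes held 1445, 2355 and 359.

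Piezo1, the mechanosensitive channel, was at 108 CPM (interval 105 to 112) in members and 106 in Col10a1-high chondrocytes of MGJ and at 137 CPM (interval 119 to 158) and 93.5 in MGJ2, while Trpv4, another mechanosensitive channel of chondrocytes, was at 243 and 131 CPM in MGJ and 244 and 107 in MGJ2. Apoe, the lipid carrier, was at 112 and 27.1 CPM in members, below the 641 and 77.1 CPM of neutrophils. Of the mechanosensitive channels and targets of YAP, 1 of 9 were past 2-fold higher (Piezo2, 11.99 CPM) and 2 lower in MGJ, and 1 of 8 higher (Trpv4) and 0 lower in MGJ2. Over all genes, 8.92% were higher and 7.5% lower in MGJ, and 9.36% and 5.89% in MGJ2.

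Across Col10a1 levels, genes differed in where their level moved. In MGJ, barcodes were grouped into 4 bins within the members (275 without a Col10a1 UMI, 920 with up to 2, 187 with 2 to 5 and 93 with 5 to 10 per 10000 UMIs) and 4 beyond (151, 177, 251 and 184 barcodes from 10 to 30, 30 to 100, 100 to 300 and 300 upward). Median depths of these bins ran from 16843 UMIs in barcodes without Col10a1 to 25340 at 10 to 30. Ucma was at 2104, 2353, 1847 and 1282 CPM in the 4 bins of members and at 1112, 829, 464 and 143 beyond. Penk was already low in the last bin of members (159, 189.8, 113 and 48.7 CPM). Epyc and Cnmd held their level longer. Cnmd was at 2693 CPM without Col10a1, 2232 at 5 to 10 and 1488 at 100 to 300. Epyc was at 350.2 CPM in the first bin, 352 in the last bin of members and 315 at 30 to 100, then 174 and 73.4. Pth1r was at 415 CPM without Col10a1, 1179 at 5 to 10 and 1559.7 at 30 to 100, and Bmp2 at 95.8, 485 and 652, so both were higher within the members as Col10a1 approached its limit. Mgp, the matrix Gla protein that inhibits calcification, had its lowest level in the middle, at 17219.6 CPM without Col10a1, 5679 at 5 to 10, 3535 at 30 to 100 and 10772 at 300 upward. Over whole classes it was higher in members than in Col10a1-high chondrocytes in MGJ (15715 against 7478 CPM) and not in MGJ2 (10915 against 13257 CPM), where the ratio of 0.823 became 1.07 with every barcode weighted equally. Ihh was higher in each bin than in the one before, from 17.7 to 339 CPM, and Ptch1 lay between 104 and 127 CPM in the bins of members and ended at 16.7. Bins of MGJ2 held 7 to 21 barcodes and are not described as a trend.

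**Figure D4:**
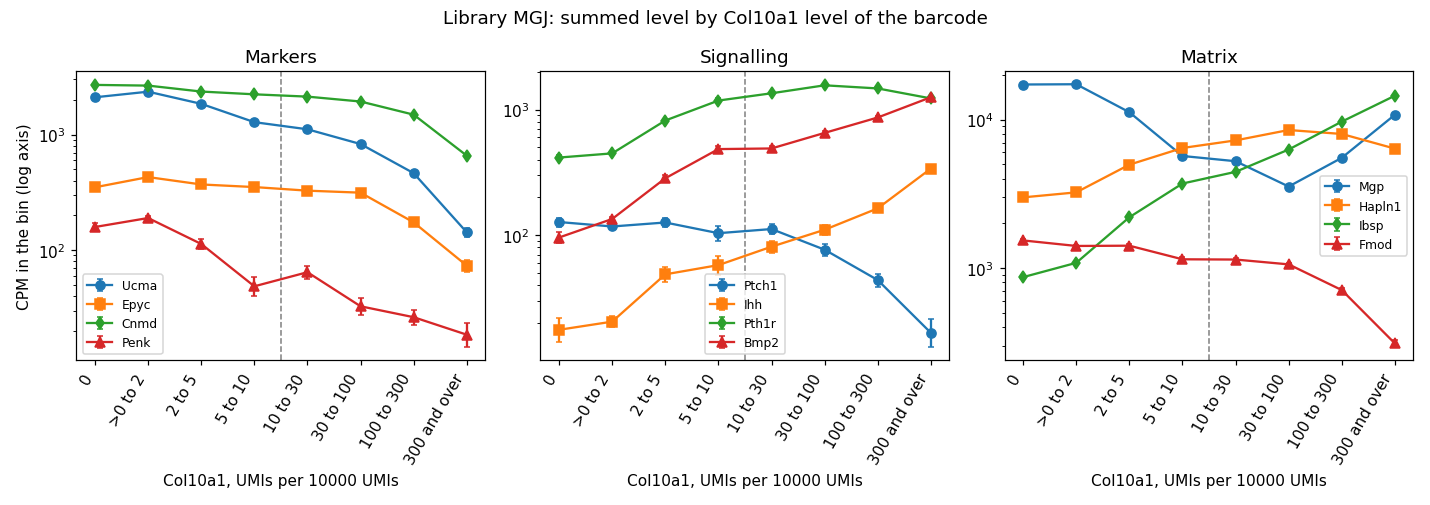
Summed level in CPM (log axis) against the Col10a1 level of the barcode in MGJ, for markers, signalling genes and matrix genes; bars are exact 95% counting intervals, and the dashed line is the Col10a1 limit, with members to its left. Ucma and Penk are lower and Pth1r, Bmp2 and Ibsp higher before the limit is reached, and Mgp is lowest at 30 to 100 (3535 CPM).

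Barcodes just inside and just outside the limit were set side by side. The 93 members of MGJ with 5 to 10 of Col10a1 per 10000 UMIs held 1282 CPM of Ucma, 352 of Epyc, 2232 of Cnmd, 48.7 of Penk and 1179 of Pth1r. The 91 barcodes just beyond, with 10 to 20, held 1199.7 of Ucma, 328 of Epyc, 2167 of Cnmd, 82.96 of Penk and 1293 of Pth1r. The summed level of Penk in MGJ (interval 39.9 to 58.8 inside and 71.4 to 95.8 outside) was higher just beyond the limit. It was lower over the whole Col10a1-high class than over all members. These intervals cover counting error only, and whether a few barcodes made the gap was not tested. In MGJ2, 8 members with 5 to 10 of Col10a1 held 5 Penk UMIs, and 4 barcodes with 10 to 20 held 0. In Ucma, members at the limit were nearer to Col10a1-mid chondrocytes (959.9 CPM of Ucma) than to the class as a whole (2179).

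Among members of MGJ thinned to 5000 UMIs, the Fano factor (variance over mean; 1 for counting noise alone) had a median of 1.08 over 4137 genes. It was highest for Mgp (147), Ibsp (144), Spp1 (79.1), Col2a1 (45.6), Fn1 (39.8) and Col1a1 (34.4), followed by Lyz2, Apoe, Cxcl2, Cxcl1, Ccl2, Fth1, Cst3, Malat1 and Comp. At an equal relative spread the factor is larger for a gene of higher mean, so abundant genes rank high. Col2a1 had a mean of 276 UMIs of 5000, with 128 at the 10th percentile and 418 at the 90th. Ibsp had a mean of 6.82, a median of 0 and a highest value of 454. Mgp had 5 UMIs of 5000 at the 10th percentile of members, 36 at the median and 219 at the 90th. Lyz2 and Apoe, genes of macrophages, had a median of 0 UMIs and a highest value of 85 and 84, so their spread came from a few barcodes. Chemokine genes were among these as well. Cxcl1, which draws neutrophils, was at 4599.9 CPM in members, 1567 in Col10a1-high chondrocytes and 869 in neutrophils of MGJ, with a 10th percentile of 0.786, a median of 30.7 and a 90th percentile of 109 per 10000 UMIs, and it was at 129.7 CPM with a median of 0 in members of MGJ2. Ccl2, which draws monocytes, was at 792 and 3.47 CPM in members of MGJ and MGJ2. Cxcl2 was at 1879 CPM in members of MGJ, below the 10456 of neutrophils, which make it.

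Ibsp divided the members. It was at least 10 per 10000 UMIs in 191 of 1475 members of MGJ, of which 49 lay between 10 and 20, and in 16 of 48 members of MGJ2; another 53 members of MGJ lay just under, from 5 to 10. The split was drawn on Ibsp after its spread was seen, and the sets below carry no name. Members with Ibsp had less Ucma (605 against 2428 CPM in MGJ, 93.98 against 932 in MGJ2), less Epyc (148 against 446 and 18.0 against 371) and less Cnmd (1842 against 2714 and 1052 against 3676). They had more Pth1r (981 against 470.1 CPM and 1669.6 against 818 CPM), more Alpl (903 against 311 and 1922 against 423) and more Spp1 (8841 against 1962 and 12881 against 1945). Col1a1 was also higher in them, at 10900.3 against 4000.4 CPM in MGJ and 25420.0 against 2844 in MGJ2, while Col10a1-high chondrocytes, whose Ibsp was 11466 and 11267 CPM, had 1897 and 2164 of Col1a1. The members with Ibsp held 9540.4 and 16746 CPM of it. In MGJ2 their Ucma lay below the 128 CPM of Col10a1-high chondrocytes, and their Alpl and Pth1r lay above the levels of that class. In MGJ their Ucma lay above its 344 CPM, and their Alpl and Pth1r lay below its levels. Whether barcodes that also held an osteoblast took part in this was not tested. Their Col2a1 was 46529 and 50592 CPM and their median depth 21655 and 30375.5 UMIs, against 20766 and 31343.5 UMIs in the members without. Ptch1, Trpv4 and Piezo1 were close in both sets, with 114 and 119.6, 245 and 243, and 118 and 107 CPM in MGJ.

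**Figure D5:**
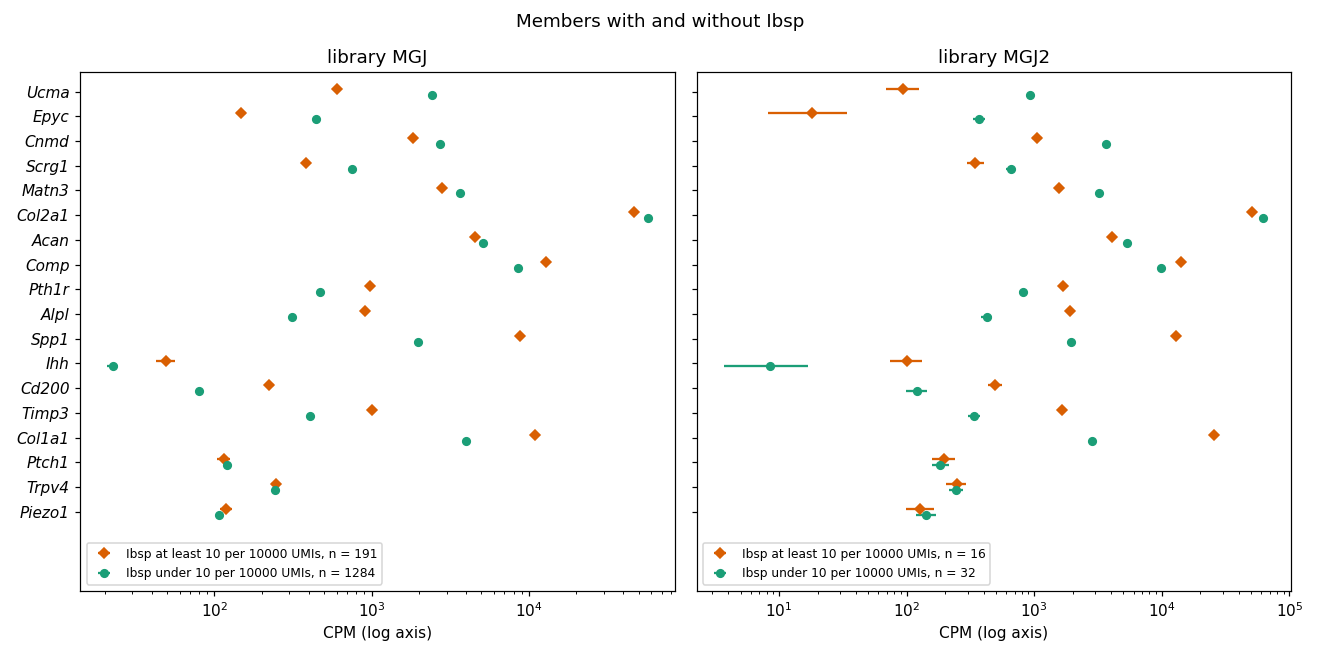
Level in CPM (log axis) of 18 genes in members with at least 10 and with under 10 of Ibsp per 10000 UMIs, in libraries MGJ (191 and 1284 barcodes) and MGJ2 (16 and 32); bars are exact 95% counting intervals. Ucma, Epyc and Cnmd lie lower and Pth1r, Alpl, Spp1, Timp3 and Col1a1 higher in the members with Ibsp in both libraries, and Ptch1, Trpv4 and Piezo1 nearly coincide.

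The genes most like each marker were found by Spearman correlation over the 1475 members of MGJ, as a description. They were sought among a chosen part of the genes compared in the Ibsp split. The points share 1 library and differ in depth. Ucma went most with Scrg1 (0.35), Matn3 (0.34) and Cnmd (0.32) and least with Ibsp (-0.34). Epyc went with Col2a1 (0.38) and Cnmd (0.35) and against Col1a1 (-0.37). Cnmd went with Epyc (0.35) and Col2a1 (0.34). Penk had its highest value with Mgp (0.24), and 0.10 with Ucma. Most members had no Penk UMI at this depth and were tied at 0, so these values cannot show how strongly Penk went with other genes. In the 48 members of MGJ2, Ucma had 0.55 with Cnmd and -0.49 with Alpl, and Penk 0.37 with Mgp.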

How the data were processed

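The deposited files held UMI counts of 32285 genes per barcode for 2 libraries (10x 3′ chemistry, version 3), made by the authors with Cell Ranger (version 4.0.0 per the file headers) on GRCm38 (build per the labels), with no normalization. Seurat is named in the submitters' processing notes, and its settings were not applied. Members were taken by limits on these counts in each library, and members and gene lists (23 lists, 294 genes measured) were chosen with earlier results of these data known. The Ibsp split was chosen after its spread was seen. A ratio was counted from 50 UMIs of a gene in both classes together, and past 2-fold means a ratio of at least 2 or at most 0.5, whatever its interval. Named genes were the rule's genes and markers, listed genes with high levels or ratios, the 10 largest ratios each way against Col10a1-high chondrocytes and the 15 largest against other barcodes (same direction past 2-fold in both libraries, detected in 10% of barcodes), the 15 largest Fano factors, and Piezo1, Apoe and Trpv4. Intervals were exact Poisson for levels, conditional binomial for ratios and Clopper-Pearson for shares. Each library was 1 sample without a labelled day, so no test was made. Doublets were not removed in the main values. Scripts used Python 3.11.15, numpy 2.4.6, scipy 1.17.1, pandas 2.3.3, matplotlib 3.10.9 and scanpy 1.11.5. The ratios were tried on counts simulated with counting noise alone, which cannot show how the intervals do with the spread between barcodes.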

Additional observations from a re-analysis of the deposited data

Results flagged for a closer look

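Barcodes outside the comparisons also carried Ucma above the background of neutrophils (23.4 CPM for MGJ, 0.101 CPM for MGJ2). In MGJ, 61 barcodes met every limit of the rule except the minimum of 5000 UMIs (median 3192 UMIs), and their Ucma was 1442 CPM. Another 28 barcodes of MGJ, removed by the filters on genes and mitochondrial UMIs, held 1643 CPM of Ucma, and 5 such barcodes of MGJ2 held 402 CPM. Outliers between samples were not looked for, since each library is 1 sample.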

How the results depend on the processing

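Of 74 counts of members and genes recomputed under 9 other settings and 2 more chosen after seeing the data, 66 were within 1.5 times the value reported. Without a minimum of UMIs per gene, MGJ gave 1717 genes higher and 2573 lower than in Col10a1-high chondrocytes and 2725 higher than in other barcodes, and MGJ2 gave 1695, 1621 and 4413. With at least 20 UMIs, MGJ2 gave 893 higher and 633 lower than in Col10a1-high chondrocytes. Of 3777 ratios recomputed for single genes, 957 left the counting interval of the value reported, and 17 more were reversed. In all, 168 moved by over 1.5 times, 23 in MGJ and 145 in MGJ2. Past 2-fold against Col10a1-high chondrocytes was lost with such a move for Car12 (1.44 with a Col10a1 limit of 5) and Col1a1 (1.31 in members with Ibsp under 10 only), both in MGJ2. A reversal was a ratio that crossed 1 although its reported interval excluded 1. Of the 3777 ratios, 3735 stayed on the same side of 1. For single genes the ratio to Col10a1-high chondrocytes was reversed as follows, and the cause was not tested. Without barcodes carrying markers of other cells, it was 0.989 for Apoe, 1.56 for C1qa, 1.09 for C1qb, 1.06 for C1qc and 0.853 for Lyz2 in MGJ and 1.32 for Cxcl2 in MGJ2. In members with Ibsp under 10 only, it was 1.003 and 1.11 for Matn1 in MGJ and MGJ2 and 1.15 for Mgp in MGJ2. With every barcode weighted equally, it was 1.24 for Lyz2, 1.07 for Mgp and 0.848 for Slc20a1 in MGJ2. It was 3.30 for Prg4 in MGJ with at most 10% mitochondrial UMIs and 0.732 for Il17b in MGJ2 with a Col10a1 limit of 5. Against other barcodes, Itgbl1 gave 0.925 in MGJ with at least 10000 UMIs per barcode, and Ctsk and Mmp13 gave 1.10 and 1.19 in MGJ2 with equal weights. Scrublet called 0 of 13460 barcodes of MGJ as doublets and so had not worked there, and called 223 of 7806 in MGJ2, 1 of them a member. No paired analysis was possible because the labels put neither library in a group and no test was made. The 48 members of MGJ2 limit its precision, and spread between mice cannot be seen in either library.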
